A study of Homo sapiens with 12 samples.

Results

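The APOBEC3 genes are 7 neighbouring protein-coding genes, APOBEC3A, APOBEC3B, APOBEC3C, APOBEC3D, APOBEC3F, APOBEC3G and APOBEC3H, and they were followed here in A549 cells, a human lung adenocarcinoma line. All 7 were looked up by symbol among the 26334 genes of the strand-specific count tables, and 5 of them were expressed well enough to be among the 15352 genes tested. The cells had been infected with lentivirus carrying either a non-targeting hairpin (shControl) or a hairpin against RNF113A (shRNF113A) and selected with puromycin at 1 µg/ml for 4 days. Each population was left untreated or received Cisplatin, given in the sample descriptions as 25 µg/ml for 20 h (the study's own text gives Cisplatin in µM, so the unit is uncertain), which made 4 conditions with 3 replicate libraries each and 12 libraries in all. All 4 conditions thus share the infection and the selection, and one hairpin is the only source of depletion. RNF113A is an E3 ubiquitin ligase and a component of the spliceosome, and the comparisons address what its depletion and the DNA crosslinking drug Cisplatin each do to transcript levels and splicing.

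APOBEC3 enzymes remove the amino group of cytosine in single-stranded DNA and so turn it into uracil. They are best known for damaging the genomes of retroviruses such as HIV, and APOBEC3A and APOBEC3B are also studied as sources of mutations in tumours, the lung included. The family arose by gene duplication, and its members have either one or a pair of deaminase domains: APOBEC3A, APOBEC3C and APOBEC3H have one, and the others have a pair.

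The libraries held between 33859097 and 56071514 read pairs at alignment, a count taken after the authors' filtering and not the number sequenced. Of these pairs, between 26220526 and 45721152 were assigned to a gene on its own strand. Replicate 2 of both shControl conditions stood apart from its fellow replicates, with a chi-square per degree of freedom of 63.5 to 96 in the pairs that contain it against 8.17 and 11.9 in the pairs that do not. Leaving out either of those libraries moved the log2 fold changes of APOBEC3B, APOBEC3C and APOBEC3F by at most 0.15 and those of APOBEC3D and APOBEC3H by at most 0.37, and no member crossed an adjusted p of 0.05. RNF113A mRNA itself differed little with the hairpin. Its CPM (reads scaled to a common library depth with TMM factors) was 19.9 ± 0.397 (SD, n = 3) in untreated shControl cells and 16.0 ± 0.772 in untreated shRNF113A cells, a log2 fold change of -0.31 ± 0.09 (SE, edgeR adjusted p = 0.0247). After Cisplatin it was 29.4 ± 1.95 and 26.7 ± 2.88, a log2 fold change of -0.14 ± 0.09 (edgeR adjusted p = 0.232). Depletion is used below as the name for the shRNF113A hairpin, and these libraries do not measure RNF113A protein. The study examined that protein by western blot in A549 extracts. The summed level of 7 epithelial and A549 markers was lower with Cisplatin, at 21310 to 30880 CPM untreated and 11930 to 15850 CPM treated in shControl libraries, and at 24720 to 26770 CPM and 11210 to 12060 CPM in shRNF113A libraries. Of these 7 markers, 3 were called lower with Cisplatin, as were 11.2% of all genes tested. With depletion 2 were called lower, AKR1B10 and AKR1C1, as were 5.52% of genes. The part of these marker shifts in the results below was not tested. APOBEC3 genes are abundant in leukocytes, and 11 leukocyte markers summed to between 5.22 and 20.1 CPM. PTPRC averaged no more than 0.0513 CPM in any condition, and CD8A averaged between 0.596 and 1.11 CPM. Most of the sum came from ITGAM after Cisplatin and from CD14 together with ITGAM without it. ITGAM was the one leukocyte marker that rose at least 2-fold with Cisplatin, from 2.26 to 13.6 CPM on average in shControl cells and from 1.29 to 6.88 CPM in shRNF113A cells, and CD14 was the one that fell at least 2-fold in the additive model, from 3.78 to 1.56 CPM and from 3.48 to 1.96 CPM. The part of ITGAM and CD14 in the results below was not tested. A list of 6 fibroblast and endothelium markers summed to between 3.9 and 35.9 CPM. Of these, 5 averaged under 1 CPM in all conditions. The exception was COL1A1, at 15.9 CPM on average in untreated shControl cells. In bulk RNA, more cells with a transcript and more transcript per cell cannot be told apart.

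All 7 genes lie on the plus strand of chromosome 22 within 151.3 kb (hg19, chr22:39348746-39500072), in alphabetical order from APOBEC3A to APOBEC3H. Because the genes are duplicates, part of their sequence cannot be assigned to one gene. Of all 73-base stretches of coding and untranslated exon, 23.2% in APOBEC3B and 18.5% in APOBEC3A also occur in another member, as do 15.5% in APOBEC3F, 15.1% in APOBEC3G, 10.8% in APOBEC3D, 0.356% in APOBEC3C and 0 in APOBEC3H. In this respect the values of APOBEC3B and APOBEC3A are less certain than those of APOBEC3C and APOBEC3H. The count of APOBEC3C depends more on the annotation, since its exons cover 2818 bases in Gencode and 1109 in RefSeq. In replicate 1 of untreated shControl it had 3378 HTSeq reads on Gencode exons and 1593 STAR reads on RefSeq. APOBEC3B had 1227 and 976 there. The difference between duplicates can be seen in the second exons of APOBEC3B (chr22:39380080-39380236) and APOBEC3C (chr22:39411600-39411756), the most abundant members here. Both exons are 157 bases long and flanked by AG and GT, and they differ at 54 positions (65.6% identity), shown in capitals in the hg19 plus strand.
APOBEC3B second exon: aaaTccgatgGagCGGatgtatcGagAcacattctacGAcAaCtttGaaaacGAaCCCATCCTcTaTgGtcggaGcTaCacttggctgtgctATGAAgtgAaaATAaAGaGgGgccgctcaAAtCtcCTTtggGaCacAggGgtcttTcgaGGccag
APOBEC3C second exon: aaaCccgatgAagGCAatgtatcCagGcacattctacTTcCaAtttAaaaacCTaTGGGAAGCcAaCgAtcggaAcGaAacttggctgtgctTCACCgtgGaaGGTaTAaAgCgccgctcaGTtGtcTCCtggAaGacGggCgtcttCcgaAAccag

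APOBEC3H had the largest response to the drug among the members, and it was the one member of 7 with an entry in the RefSeq promoter table used here (GRCh38.p14, chr22:39096994-39097293, plus strand). The window runs from 250 bases before the start of transcription to 50 bases after it, and the capitals mark the transcribed bases.
APOBEC3H promoter: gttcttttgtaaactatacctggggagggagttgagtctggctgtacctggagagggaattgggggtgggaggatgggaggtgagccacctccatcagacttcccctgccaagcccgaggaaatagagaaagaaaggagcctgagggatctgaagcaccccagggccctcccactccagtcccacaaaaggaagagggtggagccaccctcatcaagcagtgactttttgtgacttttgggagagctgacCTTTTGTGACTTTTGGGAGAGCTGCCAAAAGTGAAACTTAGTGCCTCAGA
On either strand the window held no AP-1 site (TGANTCA, found in 7.71% of 35116 promoters), SP1 box (GGGCGG, 45.0%), TATA box (TATAAA, 11.5%) or cell cycle genes homology region (TTTGAA, 15.2%). It also held no match to the pattern used for the interferon-stimulated response element (3.57% of promoters), the NF-kB site (5.91%) or the p53 half-site (6.63%). Each motif was searched as a fixed pattern in this window alone, so variant forms of a site would be missed.

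Per length of transcript, APOBEC3C was the most abundant member in all 4 conditions, followed by APOBEC3B and, further down, APOBEC3F. In untreated shControl cells APOBEC3C stood at 31.4 ± 0.913 RPKM (exonic reads divided by the length of the exons and by the library's depth), APOBEC3B at 15.9 ± 0.844 and APOBEC3F at 1.70 ± 0.359 (SD, n = 3). APOBEC3D and APOBEC3H were near the lower limit, at 0.0886 ± 0.0123 and 0.0755 ± 0.035, and their ranges overlapped, so their order in untreated cells is not set. With Cisplatin the ranges of these 2 genes separated, and in shControl cells APOBEC3H reached 0.953 ± 0.112 and APOBEC3D 0.512 ± 0.0398. Neighbours higher in the order did not overlap in any condition. APOBEC3A and APOBEC3G were at the floor. APOBEC3A had no read on its strand in any of the 12 libraries and APOBEC3G had 1 read in all, in untreated shControl cells. HTSeq, with the other annotation, gave APOBEC3A 1 read in each of 2 Cisplatin-treated libraries. A count of 0 allows up to 0.0638 to 0.112 CPM at these depths, counting error only.

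**Figure D1:**
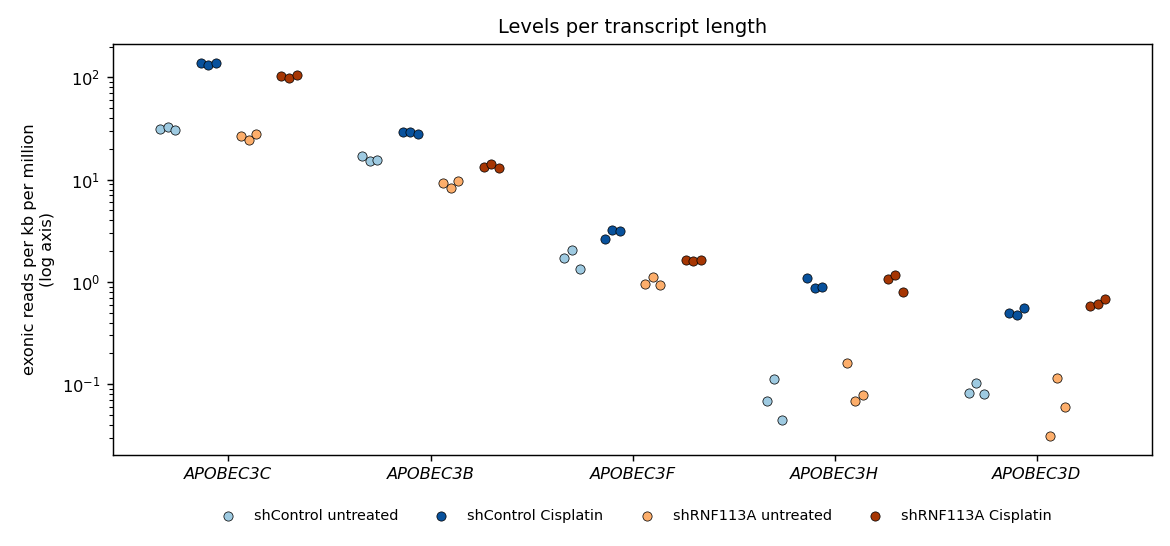
RPKM, exonic reads per length of exon and library depth (log axis), of the 5 detected APOBEC3 genes, with one point per library and colours for the 4 conditions. APOBEC3C sits highest, at 31.4 in untreated and 136 in Cisplatin-treated shControl cells on average, and APOBEC3D and APOBEC3H overlap in untreated cells.

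The make-up of the family's RNA moved with both factors. APOBEC3C accounted for 63.8% ± 1.19 of the summed per-length level of the 7 genes in untreated shControl cells and 80.4% ± 0.641 after Cisplatin, and for 71.8% ± 0.101 and 85.9% ± 0.902 in shRNF113A cells (SD, n = 3). The share of APOBEC3B went the other way, from 32.4% ± 1.61 to 17.0% ± 0.593 in shControl cells and from 25.0% ± 0.543 to 11.4% ± 0.738 in shRNF113A cells. The per-length level of APOBEC3C was 1.98 ± 0.134 times that of APOBEC3B in untreated shControl cells and 7.56 ± 0.55 times in Cisplatin-treated shRNF113A cells. The ranges of this ratio did not overlap between any of the 4 conditions.

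Cisplatin raised 5 members, APOBEC3C, APOBEC3D and APOBEC3H at least 2-fold and APOBEC3B and APOBEC3F by less. In a model with the drug and the hairpin as additive terms, all 5 tested members were higher at an edgeR adjusted p under 0.05, and so were 34.8% of all genes tested. With a fold of at least 2 added, 3 members were called higher, against 10.3% of all genes. None was lower, against 32.1% of genes by adjusted p and 11.2% with the 2-fold limit. APOBEC3H entered the test through its Cisplatin-treated libraries alone and APOBEC3D had 3 of 6 untreated libraries at the minimum of 0.258 CPM, so the share of tested members is not itself evidence about the family. The same limit holds for the median log2 fold change, which was 1.94 over the 5 members and 0.029 over all genes.

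APOBEC3C, a single-domain enzyme, was the member whose log2 fold changes with Cisplatin had the smallest errors. It stood at 44.0, 43.5 and 43.6 CPM in the 3 untreated shControl libraries and at 187.7, 172.2 and 178.4 CPM after Cisplatin. In shRNF113A cells the values were 37.5, 34.6 and 37.9 CPM without the drug and 131.2, 122.3 and 138.3 CPM with it. Every treated library was above every untreated one in both populations. The log2 fold change was 2.04 ± 0.07 in shControl cells (SE, edgeR adjusted p = 1.11e-09) and 1.83 ± 0.07 in shRNF113A cells (edgeR adjusted p = 3.51e-09).

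APOBEC3H, also a single-domain enzyme, showed the largest fold change from the lowest base. Its counts were 3, 5 and 2 reads in the untreated shControl libraries and 54, 45 and 49 after Cisplatin. In shRNF113A cells they were 7, 3 and 4 reads without the drug and 38, 44 and 23 with it. The groups did not overlap, but the untreated values rest on single reads and the fold change is imprecise. It was 3.69 ± 0.38 on the log2 scale in shControl cells (edgeR adjusted p = 5.22e-06) and 3.13 ± 0.36 in shRNF113A cells (edgeR adjusted p = 1.3e-05).

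APOBEC3D, which has a pair of deaminase domains, behaved in the same direction. It had 9, 12 and 12 reads in untreated shControl libraries and 57, 54 and 88 after Cisplatin. In shRNF113A cells it had 8, 13 and 5 reads without the drug and 54, 58 and 55 with it. Treated and untreated libraries did not overlap. The log2 fold change was 2.41 ± 0.28 in shControl cells (edgeR adjusted p = 1.51e-05) and 2.95 ± 0.29 in shRNF113A cells (edgeR adjusted p = 3.23e-06).

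APOBEC3B, a mainly nuclear member of the family, rose by less than 2-fold. It stood at 27.0, 21.8 and 23.7 CPM in untreated shControl libraries and at 41.9, 40.6 and 39.4 CPM after Cisplatin. In shRNF113A libraries it stood at 13.7, 12.5 and 14.7 CPM untreated and at 18.2, 19.7 and 18.8 CPM treated. All 3 treated shRNF113A libraries were thus below all 3 untreated shControl libraries. This comparison across both factors was not tested, and its share over all genes was not counted. The log2 fold change with Cisplatin was 0.75 ± 0.09 in shControl cells (edgeR adjusted p = 2.58e-05) and 0.47 ± 0.10 in shRNF113A cells (edgeR adjusted p = 0.000942).

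APOBEC3F, another enzyme with a pair of domains and a restriction factor of HIV, changed by about as much as APOBEC3B. It stood at 7.60, 9.15 and 6.28 CPM in untreated shControl libraries and at 10.4, 11.3 and 11.8 CPM after Cisplatin. In shRNF113A libraries the values were 4.16, 4.88 and 3.66 CPM without the drug and 6.66, 6.77 and 6.40 CPM with it. The groups did not overlap within either population. The log2 fold change was 0.54 ± 0.15 in shControl cells (edgeR adjusted p = 0.00749) and 0.64 ± 0.15 in shRNF113A cells (edgeR adjusted p = 0.00308).

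**Figure D2:**
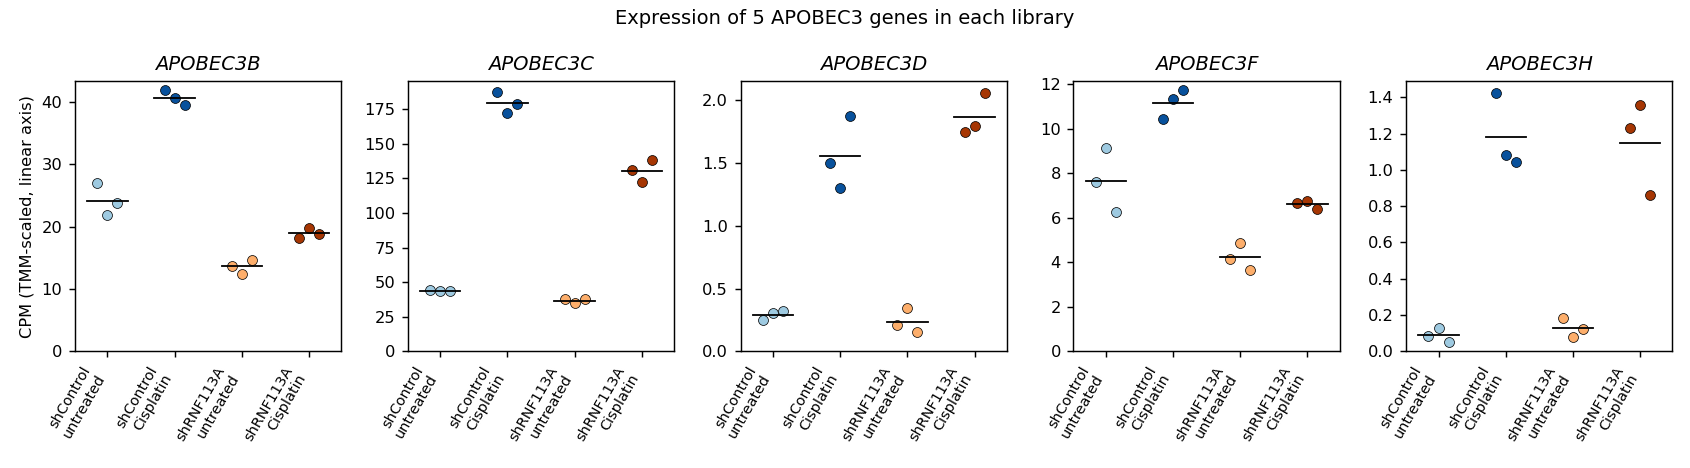
CPM of APOBEC3B, APOBEC3C, APOBEC3D, APOBEC3F and APOBEC3H in each library (linear axes that start at 0), with points for the 3 replicates of the 4 conditions and a line at their mean. Cisplatin-treated libraries lie above untreated ones of the same hairpin for all 5 genes, and APOBEC3B, APOBEC3C and APOBEC3F are lower with shRNF113A.

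Within each population, the same 5 members passed the test for Cisplatin and the same 3 reached 2-fold. In shControl cells 28% of all genes were higher at an edgeR adjusted p under 0.05 and 9.16% by at least 2-fold, and in shRNF113A cells 32.4% and 11.6%. Non-overlapping libraries with higher values after Cisplatin, as seen in all 5 members, were found for 28.7% of genes tested in shControl cells and 39.9% in shRNF113A cells. The controls of one comparison are not those of the other, but the spread between replicates was estimated over all 12 libraries.

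Depletion of RNF113A lowered APOBEC3B, APOBEC3F and APOBEC3C, and left APOBEC3D and APOBEC3H without a detectable difference. In the additive model APOBEC3B fell by 0.97 ± 0.08 on the log2 scale (edgeR adjusted p = 1.12e-06), just inside the 2-fold limit. APOBEC3F fell by 0.81 ± 0.11 (edgeR adjusted p = 6.8e-05) and APOBEC3C by 0.36 ± 0.06 (edgeR adjusted p = 0.000266). The differences of APOBEC3D (log2 fold change 0.066 ± 0.21, edgeR adjusted p = 0.816) and APOBEC3H (0.11 ± 0.25, edgeR adjusted p = 0.85) were smaller than their errors. These 3 of 5 tested members were lower where 24.0% of all genes were, and none reached 2-fold, against 5.52% of genes. No member was higher, against 23.5% of genes by adjusted p and 5.47% with the 2-fold limit.

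Depletion lowered APOBEC3B in untreated cells by 0.83 ± 0.09 on the log2 scale (edgeR adjusted p = 7.19e-05) and in Cisplatin-treated cells by 1.10 ± 0.09 (edgeR adjusted p = 8.23e-06). The second value is the only one of the depletion comparisons in which a member reached 2-fold, where 5.42% of all genes did so downwards. In untreated cells no member did, against 4.96% of genes. APOBEC3F fell by 0.86 ± 0.15 in untreated cells (edgeR adjusted p = 0.00153) and by 0.76 ± 0.15 in treated cells (edgeR adjusted p = 0.00172). APOBEC3C fell by 0.25 ± 0.07 in untreated cells (edgeR adjusted p = 0.0175) and by 0.46 ± 0.07 in treated cells (edgeR adjusted p = 0.000304). Without replicate 2 of untreated shRNF113A, the untreated log2 fold change of APOBEC3C was -0.21 with an edgeR adjusted p of 0.0787. Of the 12 fits that each left out 1 library, 11 passed for this comparison. Altogether 3 of 5 tested members were lower in each comparison, against 14.6% of genes in untreated and 21.8% in Cisplatin-treated cells. For all 3 genes the libraries of the 2 hairpins did not overlap in either treatment, which was also the case, in the same direction, for 21.7% of all genes tested in untreated and 28.8% in treated cells. The libraries of APOBEC3D and APOBEC3H overlapped.

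**Figure D3:**
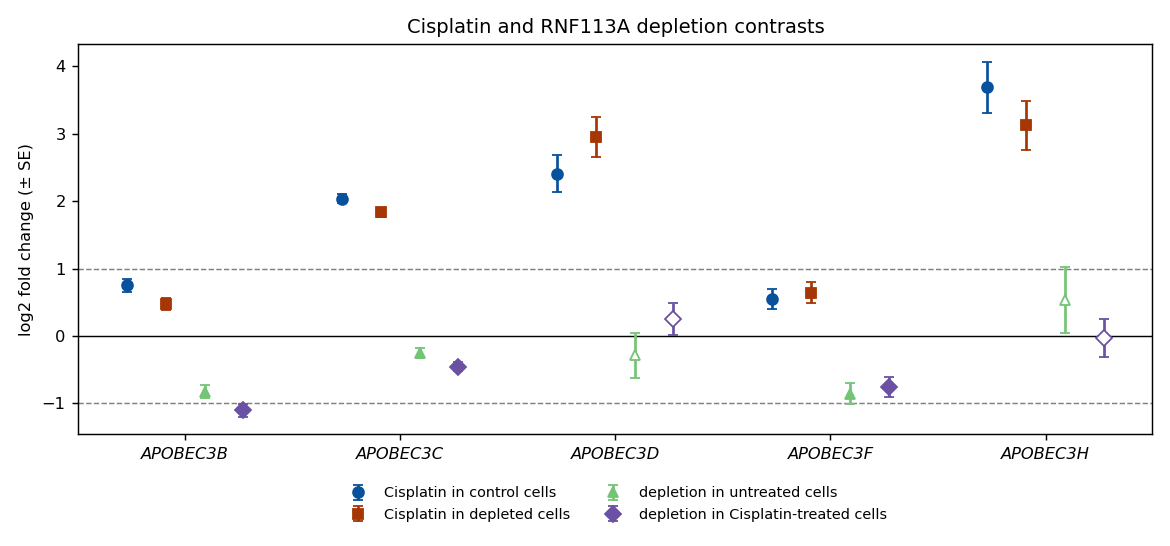
Log2 fold changes (± SE) of 5 APOBEC3 genes for Cisplatin within each hairpin and for RNF113A depletion within each treatment, filled where the edgeR adjusted p is under 0.05 and open otherwise, with dashed lines at a 2-fold change. The Cisplatin values run from 0.47 for APOBEC3B in shRNF113A cells to 3.69 for APOBEC3H in shControl cells, and all filled depletion values are below 0.

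The response to Cisplatin was then compared between the 2 hairpins by an interaction term. No member differed at an edgeR adjusted p under 0.05, where 4.25% of all genes did, and 1.28% differed at least 2-fold. DESeq2 called none either. The log2 difference between the responses, shRNF113A less shControl, was -0.28 ± 0.13 for APOBEC3B (edgeR adjusted p = 0.252) and -0.21 ± 0.10 for APOBEC3C (edgeR adjusted p = 0.243), with unadjusted p of 0.0583 and 0.0546 in edgeR and of 0.044 and 0.0267 in DESeq2. With library size in place of TMM the unadjusted edgeR p was 0.0362 and 0.0368, with adjusted p of 0.20 for both. Over these 5 members no unadjusted p was under 0.05 in the main edgeR fit on counts of the gene's own strand. With unstranded counts, also scaled by TMM, that of APOBEC3C was 0.0413. The log2 difference was 0.54 ± 0.41 for APOBEC3D, 0.098 ± 0.21 for APOBEC3F and -0.56 ± 0.56 for APOBEC3H. For the last gene the error is as large as the difference, so a moderate difference in response was not detectable at this depth.

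RNF113A belongs to the spliceosome, so reads in introns were examined as well. The count of intronic reads (gene span less exons) was set against that of exonic reads for 11488 genes, APOBEC3B and APOBEC3D among them. The span of APOBEC3D overlaps APOBEC3C, and reads in the overlap are ambiguous, so its difference is not a clean intron count. It was 80% to 633% of only 3 to 11 exonic reads in untreated shRNF113A libraries. APOBEC3C and APOBEC3F, which also overlap other members, had span counts below their exonic counts. In APOBEC3B, intronic reads amounted to 5.13%, 2.78% and 4.75% of exonic reads in untreated shControl libraries and to 4.42%, 3.31% and 4.99% after Cisplatin. In shRNF113A libraries they amounted to 3.72%, 4.15% and 3.75% without the drug and to 10.6%, 8.69% and 12.4% with it. The 3 libraries that had both the drug and the depletion lay above all 9 others.

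**Figure D4:**
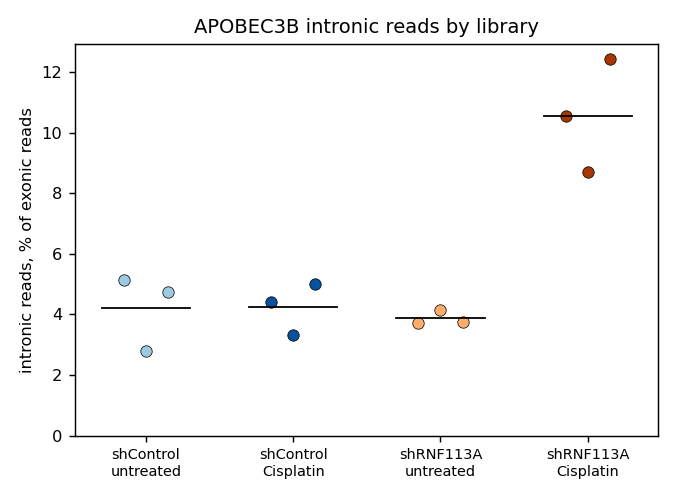
Intronic reads of APOBEC3B as a percentage of its exonic reads in each library, with points for the 3 replicates of each condition and a line at their mean. The Cisplatin-treated shRNF113A libraries lie between 8.69% and 12.4%, and the others between 2.78% and 5.13%.

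The intronic to exonic ratio of APOBEC3B rose by 1.43 ± 0.27 on the log2 scale with Cisplatin in shRNF113A cells (edgeR adjusted p = 0.000109) and by 1.31 ± 0.23 with depletion in Cisplatin-treated cells (edgeR adjusted p = 5.69e-05). Most genes did the same, since 64.6% and 81.5% of all genes tested were higher in these comparisons, with median log2 changes of 0.75 and 0.96. The rise in APOBEC3B is thus shared with the majority of genes. In the other comparisons the ratio of APOBEC3B had log2 changes of 0.0062 ± 0.19 with Cisplatin in shControl cells (edgeR adjusted p = 0.989), where 17.5% of genes were higher, and -0.11 ± 0.27 with depletion in untreated cells (edgeR adjusted p = 0.757), where 28.2% were. APOBEC3D passed in none of the 4 comparisons, and its log2 changes lay between -0.16 and 0.78 with errors of 0.31 to 0.60. Without replicate 3 of Cisplatin-treated shControl cells its change with depletion in treated cells was 0.71 ± 0.33 (edgeR adjusted p = 0.0469). All values of APOBEC3D here are limited by the overlap of its span with APOBEC3C.

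A list of other deaminases was set beside the APOBEC3 genes. Of 12 such genes, 7 were tested, namely ADAR, ADARB1, ADAT1, ADAT2, ADAT3, CDA and DCTD. The cytidine deaminases APOBEC1, APOBEC2 and APOBEC4 were at no more than 0.0468 CPM in any condition and were not tested. The 7 thus hold no other APOBEC gene. With Cisplatin 5 of the 7 rose and none fell, against 34.8% and 32.1% of all genes tested, and none reached 2-fold. With depletion 5 rose and none fell, against 23.5% and 24.0% of all genes, again under 2-fold. Their median log2 fold changes were 0.42 and 0.17, so APOBEC3B, APOBEC3C and APOBEC3F differed in sign from this median under depletion. The genes next to the cluster served as a check of position. Of the 5 nearest protein-coding genes on each side, all tested, 3 rose and 3 fell with Cisplatin and 3 rose and 1 fell with depletion, and none reached 2-fold. Their medians were 0.03 and -0.043.

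APOBEC3 deamination leaves uracil in DNA, and 14 genes linked to uracil or abasic sites in DNA were all tested. With Cisplatin 5 rose and 3 fell, against 34.8% and 32.1% of all genes tested. With depletion 2 rose and 3 fell, against 23.5% and 24.0%. A fall of at least 2-fold with Cisplatin was found for 11.2% of all genes. Only 1 of the 14 reached 2-fold, DUT, the dUTPase that keeps uracil out of newly made DNA. It went from 90.0 ± 4.78 to 33.9 ± 6.15 CPM in shControl cells and from 78.8 ± 3.55 to 38.7 ± 3.6 CPM in shRNF113A cells, an additive log2 fold change of -1.22 ± 0.10 (edgeR adjusted p = 1.18e-07).

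Over all genes tested 34.8% rose and 32.1% fell with Cisplatin, 10.3% and 11.2% at least 2-fold. Of 22 factors known to act on APOBEC3 transcription, all tested, 11 rose and 9 fell with Cisplatin, 3 at least 2-fold in each direction. The largest rises were those of IRF1, a transcription factor of the interferon response, and NFKB2, which encodes an NF-kB subunit of the noncanonical pathway. IRF1 rose by 2.25 ± 0.10 on the log2 scale (edgeR adjusted p = 3.79e-10) and NFKB2 by 2.14 ± 0.10 (edgeR adjusted p = 7.85e-10). The largest falls were those of RBL1, a pocket protein, and LIN52, a subunit of the DREAM repressor complex. RBL1 fell by 1.18 ± 0.10 and LIN52 by 1.07 ± 0.09 (edgeR adjusted p = 1.8e-07 and 3.2e-07). With depletion 4 of these factors rose and 7 fell, against 23.5% and 24.0% of all genes.

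Interferon-induced restriction factors were mixed. Of 20 such genes 16 were tested. With Cisplatin 9 rose, 4 of them at least 2-fold, and 1 fell, against 34.8%, 10.3% and 32.1% of all genes tested. TRIM22, an antiviral ubiquitin ligase, rose by 3.13 ± 0.17 and ISG15, a ubiquitin-like modifier, by 3.05 ± 0.20 on the log2 scale (edgeR adjusted p = 3.75e-09 and 1.94e-08). With depletion 5 rose and 3 fell, against 23.5% and 24.0% of all genes. OAS1, an antiviral enzyme activated by double-stranded RNA, rose by 1.44 ± 0.13 (edgeR adjusted p = 2.35e-06), and IFIT1, which binds foreign RNA ends, fell by 1.51 ± 0.18 (edgeR adjusted p = 2.68e-05).

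**Figure D5:**
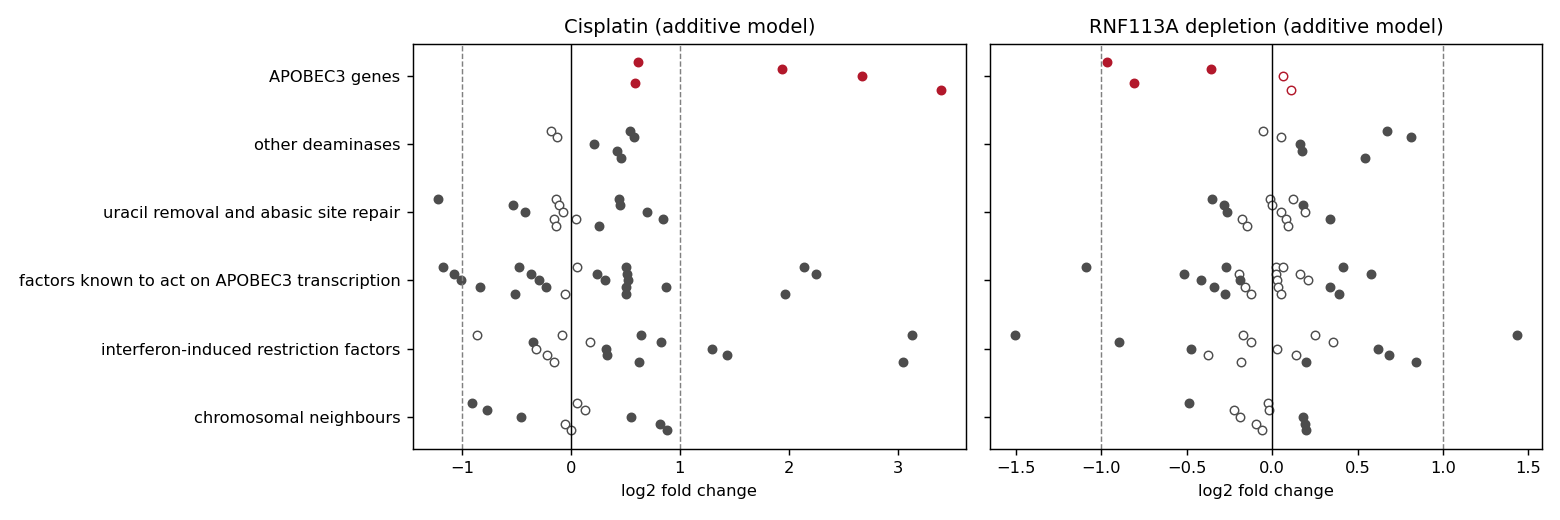
Log2 fold changes of the tested genes of each list for Cisplatin (left) and RNF113A depletion (right) in the additive model, one point per gene, filled where the edgeR adjusted p is under 0.05, with dashed lines at a 2-fold change. The APOBEC3 genes (red, top row) all lie above 0 for Cisplatin, from 0.59 to 3.39, and none of the other deaminases or chromosomal neighbours passes a dashed line.

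The genes whose levels followed each member most closely over the 12 libraries were found by Pearson's r of log2 CPM among 9777 other genes that averaged 10 CPM or more. The 12 libraries fall into 4 conditions and share their treatment, so these values describe the design as much as the genes. APOBEC3C was closest to TP53I3, DUSP14 and PRKCD (r = 0.997 for each). APOBEC3B was closest to CREBL2 (0.985), PPME1 (0.984) and PDCL3 (0.984), and APOBEC3F to UBXN7 (0.977), SYNC (0.97) and TBCEL (0.967). APOBEC3D was closest to CIC (0.991), SLC25A45 (0.989) and RGAG4 (0.986), and APOBEC3H to BLOC1S3 (0.986), COIL (0.984) and TOPORS (0.984). None of these genes was named for more than one member.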

How the data were processed

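RNA was read as stranded paired-end libraries of poly(A) mRNA. The authors removed ribosomal, transfer and mitochondrial RNA reads, trimmed to 73 bases, aligned to hg19 with STAR (2.5.2b per the submitters' processing notes) and deposited 3 kinds of counts per gene: STAR gene counts by strand on RefSeq, and HTSeq counts on Gencode v19 exons and on gene spans. The deposited rMATS splicing tables name their groups by letters that the labels do not give, and they were not used here. Members and gene lists were chosen with earlier results of these data known.

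Reads on the gene's own strand were tested with edgeR 4.0.16 (quasi-likelihood, TMM, Benjamini-Hochberg over all genes tested, R 4.3.3), with the drug and hairpin as additive terms or as 4 groups. Calls required an adjusted p under 0.05 and a fold of at least 2. Genes needed 0.258 CPM in 3 libraries. Levels between genes, their shares and the ratio of APOBEC3C to APOBEC3B used HTSeq exonic reads per kb of Gencode exon. They were not computed on RefSeq exons. In RefSeq, 22.6% of the exon bases of APOBEC3B and 52.3% of those of APOBEC3A overlap the fusion gene APOBEC3A_B and give ambiguous reads, and the Gencode spans of APOBEC3C and APOBEC3D, and of APOBEC3F and APOBEC3G, overlap. Intronic reads (span less exon) needed at least 1 intronic and 1 exonic read in every library. The fits were tested on simulated data. Same-numbered libraries of shControl cells deviated together (r = 0.635, 0.733 and 0.48 over 9779 genes), so a fit with the replicate as a block was also made. All members are named, as are for each list the 2 largest rises and falls among called genes of at least 1 CPM, and for each member the 3 genes most like it. One result that this rule names is not reported here.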

Additional observations from a re-analysis of the deposited data

How the results depend on the processing

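Of 11 counts of APOBEC3 members called, 4 stayed within 1.5 times of the value reported under every alternative run (unstranded or HTSeq counts, library size in place of TMM, other filters, DESeq2, the replicate block and leaving out each library). The replicate block, also with the block within the shControl libraries alone, an alternative chosen after seeing the data, changed no call: 3 members stayed called for Cisplatin, 0 for depletion and 0 for the interaction. Requiring at least 10 reads in every library leaves out APOBEC3D and APOBEC3H, and 1 member was then called for Cisplatin overall and in either population, because fewer members were tested. Without the 2-fold limit, 5 were called for Cisplatin in each of these, and 3 for depletion, in untreated and in treated cells alike. Leaving out libraries gave 0 to 1 members called for depletion, the one being APOBEC3B at -1.01 without replicate 2 of untreated shControl or replicate 3 of untreated shRNF113A, and 1 to 2 with a changed intronic ratio for depletion in treated cells. With HTSeq exonic counts the small differences of APOBEC3H with depletion in treated cells (0.093) and of APOBEC3F for the interaction (-0.079) changed sign. Leaving out libraries did the same for APOBEC3D with depletion (-0.056 to 0.15, with -0.014, -0.0029 and -0.0069 among them), for APOBEC3H with depletion in treated cells (-0.22 to 0.13, with 0.067 among them) and for APOBEC3F in the interaction (-0.049 to 0.22), and the cause was not tested. Depth limits APOBEC3A and APOBEC3G, which could not be tested, and the untreated levels of APOBEC3D and APOBEC3H. The comparisons of splicing events and their alternatives were not run.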
